A study of Homo sapiens with 6 samples.

Results

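The NRF2 antioxidant genes described here are 9 genes: NFE2L2 and KEAP1, which encode the transcription factor NRF2 and its inhibitor, and 7 genes known as NRF2 targets, HMOX1, NQO1, GCLC, GCLM, TXNRD1, SRXN1 and ME1. They were chosen by name, and every probe set that the platform annotation pairs with 1 of them alone was read on all 6 arrays, which gave 20 of the 54675 probe sets. A further probe set shared by NFE2L2 and CSNK2A1 was not used. Of the 20 probe sets, 16 passed the filter on low values (at least 2 of the 6 arrays above the median of all values, 50.53) and were tested among 25954 single-gene probe sets, so each of the 9 genes kept at least 1.

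RNA of AGS and HGC-27, 2 cell lines of gastric cancer, was hybridised to 1 Affymetrix array for each of 3 conditions per line. MIST1 cells were nucleofected with 3 µg of a plasmid for MIST1, a secretory cell transcription factor encoded by BHLHA15, and 1.5 µg of a GFP plasmid. GFP control cells received 3 µg of empty vector plasmid and 1.5 µg of GFP plasmid. Both were sorted on GFP 24 h later and grown for 24 h more. Parental cells received no plasmid, and whether they were sorted is not labelled. Each condition of a line is 1 array from 5 µg of total RNA, so the cell lines are the only replicates of a condition, and transfection, GFP and sorting cannot be told apart.

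NRF2 is held in the cytoplasm by KEAP1, which hands it to a CUL3 ubiquitin ligase for degradation. Oxidants and electrophiles modify KEAP1, so that NRF2 accumulates, enters the nucleus and binds antioxidant response elements together with a small MAF protein. Its targets make and recycle glutathione and thioredoxin, reduce quinones and supply NADPH. HMOX1, which encodes the heme-degrading enzyme heme oxygenase 1, is also repressed by BACH1 and induced by heme.

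The core letters of the antioxidant response element, TGACNNNGC, were searched on both strands in the 250 bases before each start site of the RefSeq promoter table (GRCh38.p14). The table held 11 promoters for 8 of the 9 genes, all but HMOX1. The letters stood in 5 of the 11, against 10.9% of all 35116 promoters, and are shown because this is the element these genes are known to share. Capitals mark the match, each sequence runs 5′ to 3′ on the gene's own strand, and a match on the opposite strand reads as its reverse complement, GCNNNGTCA.
KEAP1, chr19:10502784-10502812, minus strand: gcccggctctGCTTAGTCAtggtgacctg
GCLM, chr1:93909436-93909484, minus strand: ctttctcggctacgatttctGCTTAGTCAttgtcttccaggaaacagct
TXNRD1, first start, chr12:104215660-104215708, plus strand: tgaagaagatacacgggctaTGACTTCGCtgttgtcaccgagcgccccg
TXNRD1, next start, chr12:104286910-104286958, plus strand: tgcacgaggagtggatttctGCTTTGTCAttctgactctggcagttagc
ME1, chr6:83431160-83431208, minus strand: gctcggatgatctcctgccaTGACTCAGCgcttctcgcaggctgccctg
These matches began 31 bases before the downstream start of KEAP1, 34 before GCLM, 99 and 102 before the starts of TXNRD1 and 137 before ME1. KEAP1 and GCLM carried the same 9 letters in the same orientation. The ME1 match overlaps the AP-1 motif TGANTCA, and the other matches do not. KEAP1 held another match, TGACACGGC, 54 bases before the same start, and none before its upstream start at chr19:10503356. The letters were not in these windows of NFE2L2, NQO1, GCLC or SRXN1. A match is a description of the sequence and shows no binding.

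The 6 arrays had median intensities of 49.1 to 52.0, and their number limits the precision. The BHLHA15 probe set read 72.5 on the array labelled MIST1, 75.9 on the GFP control array and 66.3 on the parental array of AGS, and 58.7, 61.9 and 41.1 on the same arrays of HGC-27. Whether this probe set lies in the sequence of the plasmid is not labelled, so it is no check of the transfection. RAB3D, a known MIST1 target, read 1308 on the array labelled MIST1 and 540 on the GFP control array of AGS, and 1783 and 504 on those of HGC-27. All 7 gastric epithelial markers lay above the median on every AGS array, with a summed intensity between 43515 and 50464, and 1 of 7, KRT8, did so in HGC-27, where the sum lay between 1483 and 1726 and KRT19 read at most 9.20. Of the mesenchymal markers, 3 of 7 lay above the median on every AGS array and 6 of 7 on every HGC-27 array, and no leukocyte or endothelial marker exceeded 101 on any array.

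The comparison of the arrays labelled MIST1 with the GFP control asked what the MIST1 plasmid changed beyond transfection itself. None of the 9 genes passed as higher or lower. No tested probe set of the arrays did, RAB3D included (smallest limma adjusted p = 0.34), so an absence of change is not shown. The differences of the 16 probe sets lay between -0.27 and 0.08 on the log2 scale (MIST1 minus GFP control), 0 passed a limma adjusted p-value below 0.05, and 0 had an unadjusted p below 0.05. Over all genes 0% passed (0 of 13738), and 315 of 25954 probe sets had an unadjusted p below 0.05. The median over the 9 genes was -0.01, against -0.02 over all genes.

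HMOX1 read 4398 on the array labelled MIST1 and 4442 on the GFP control array of AGS, and 1038 and 1040 on those of HGC-27. Its difference was -0.01 ± 0.23 (SE, n = 2 lines; limma adjusted p = 1), with a 95% interval of -0.55 to 0.53. NFE2L2 was the one gene with both tested probe sets higher on the array labelled MIST1 in each line, by 0.04 and 0.08. KEAP1 differed by -0.11 ± 0.11 (limma adjusted p = 1). GCLM, the modifier subunit of glutamate-cysteine ligase, held the lowest value, -0.27 ± 0.14 (limma adjusted p = 1) on the probe set 236140_at, while its brightest probe set, 203925_at, differed by less than 0.01. Within AGS no probe set of the 9 genes differed by more than 0.17 in size, and within HGC-27 none by more than 0.37. These numbers come from single arrays.

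**Figure D1:**
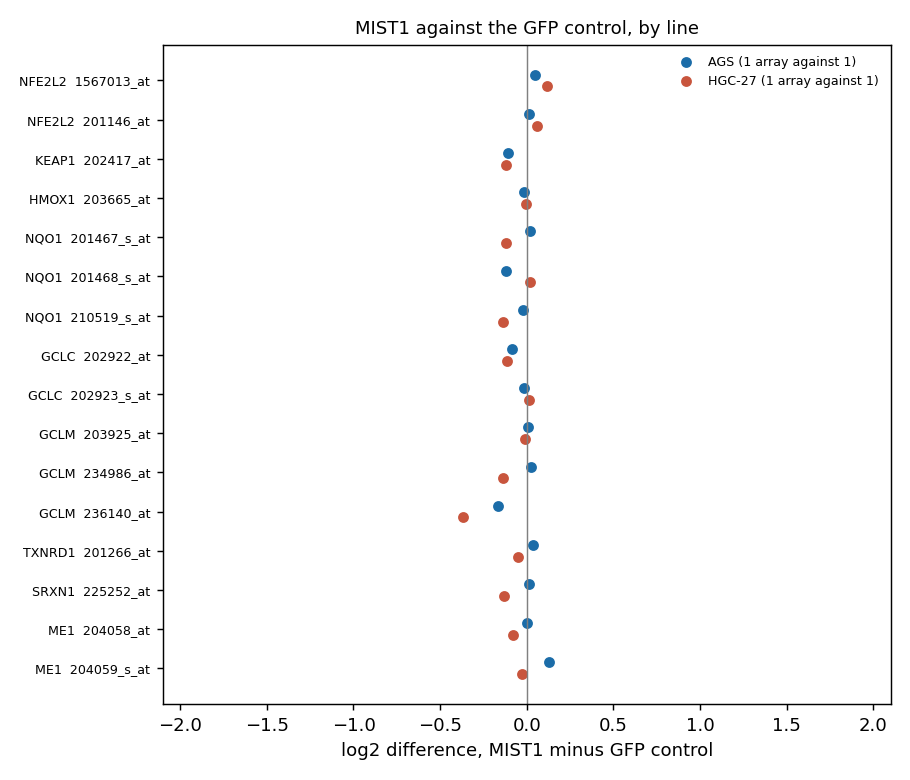
Log2 difference of intensity, MIST1 minus GFP control (horizontal axis), for the 16 tested probe sets of the 9 genes (rows), with AGS in blue above HGC-27 in red and each point 1 array against 1. The points lie between -0.37 and 0.13, around the line at 0, and the point farthest from it is GCLM 236140_at in HGC-27.

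HMOX1 was the gene that stood out when transfected cells were set against parental cells. It read 4398 on the array labelled MIST1, 4442 on the GFP control array and 2282 on the parental array of AGS. In HGC-27 it read 1038 on the array labelled MIST1, 1040 on the GFP control array and 282 on the parental array. Within each line both transfected arrays lay above the parental array and differed from each other by at most 0.014 on the log2 scale.

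With the MIST1 and GFP control arrays of a line as 1 group, HMOX1 rose 1.94-fold in AGS and 3.68-fold in HGC-27. The log2 differences were 0.95 ± 0.06 in AGS (SE, limma adjusted p = 0.0029) and 1.88 ± 0.06 in HGC-27 (limma adjusted p = 0.00019). The difference between the responses, HGC-27 minus AGS, was 0.93 ± 0.09 (limma adjusted p = 0.011). These SEs come from the gap between the MIST1 and GFP control arrays of a line, and the lone parental array is assumed to vary alike. Without any one of the 4 transfected arrays, 1 residual degree of freedom remained and 0 probe sets passed in these 3 comparisons, with HMOX1 at adjusted p between 0.10 and 0.152 in AGS and between 0.094 and 0.106 in HGC-27, while its log2 differences stayed between 0.95 and 0.96 in AGS and at 1.88 in HGC-27.

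Of the 9 genes, each read by its brightest probe set, HMOX1, GCLM and ME1 passed as higher in AGS and 0 as lower, where 13.1% of all genes passed as higher and 13.9% as lower. In HGC-27 HMOX1 passed as higher and TXNRD1 and ME1 as lower, where 22% of all genes passed as higher and 8.33% as lower. HMOX1, GCLM and ME1 passed the test of the difference between the lines, where 10.9% of all genes did so. The count of 3 of 9 in each is to be read against these shares, and ME1 passed the filter only through its HGC-27 arrays. Over all probe sets the median difference was 0 for AGS, 0.12 for HGC-27 and 0.15 for HGC-27 minus AGS, so the differences that involve HGC-27 are to be read against shifts of that size.

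The transfected arrays also differed from the parental arrays in some of the transcripts read as a sign of RNA handling. MALAT1, a nuclear noncoding RNA, read 529 and 390 on the MIST1 and GFP control arrays of AGS, against 3685 on the parental array. In HGC-27 it read 382 and 324 on these arrays, against 1566 on the parental array. The array's control for the middle of 18S ribosomal RNA read 46.8 and 48.2 on the transfected arrays of AGS, against 1142 on the parental array, and 52.7 and 52.0 in HGC-27, against 371. The part of RNA handling in the differences from parental cells was not tested.

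**Figure D2:**
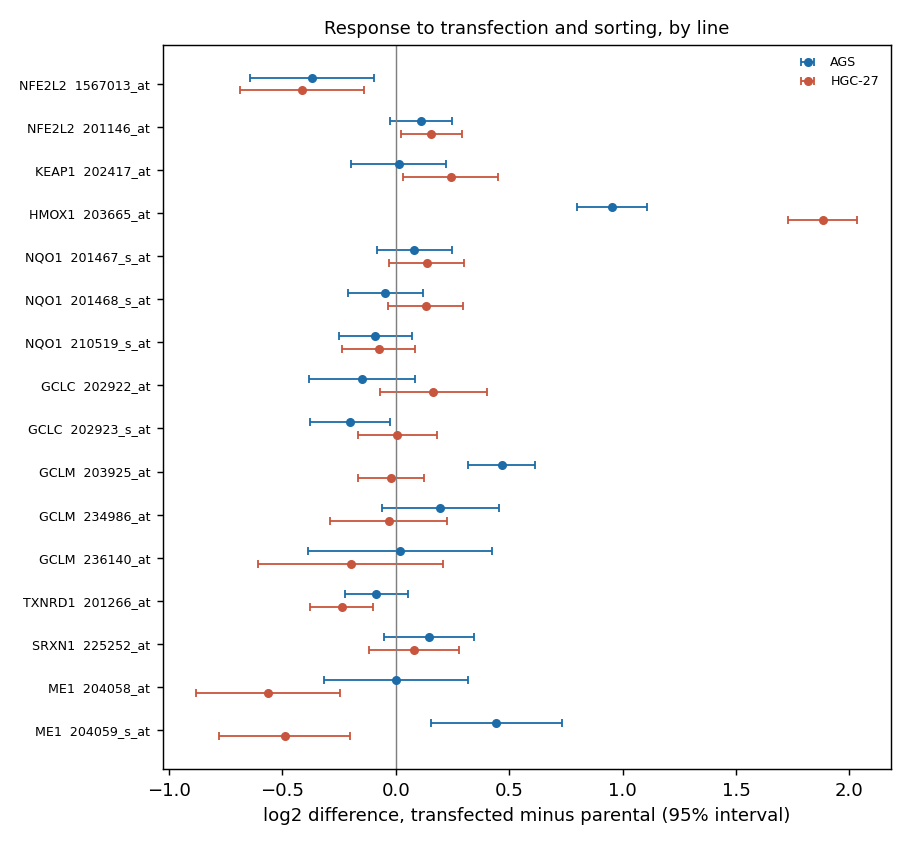
Log2 difference of intensity, transfected (MIST1 and GFP control arrays together) minus parental (horizontal axis), for the 16 tested probe sets (rows), with AGS in blue above HGC-27 in red and bars for the 95% interval of the limma fit. HMOX1 lies farthest right in both lines, at 0.95 and 1.88, and most other intervals include 0.

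Among the regulators, the brightest NFE2L2 probe set, 201146_at, read 3493 on the array labelled MIST1, 3454 on the GFP control array and 3215 on the parental array of AGS. It read 2720, 2605 and 2388 on the same arrays of HGC-27. The transfected arrays were the higher ones in each line, by 0.11 ± 0.06 in AGS (limma adjusted p = 0.19) and 0.16 ± 0.06 in HGC-27 (limma adjusted p = 0.079), and neither passed. The dimmer probe set 1567013_at went the other way. It read 247 and 240 on the MIST1 and GFP control arrays of AGS, against 314 on the parental array, and 214 and 197 on those of HGC-27, against 273. The difference was -0.37 ± 0.11 in AGS (limma adjusted p = 0.057) and -0.41 ± 0.11 in HGC-27 (limma adjusted p = 0.039), so the probe sets of NFE2L2 disagree in direction.

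KEAP1 read 781 on the array labelled MIST1, 841 on the GFP control array and 803 on the parental array of AGS. In HGC-27 it read 2433 on the array labelled MIST1, 2647 on the GFP control array and 2145 on the parental array. The AGS arrays overlapped, with the parental value between the transfected ones, while the HGC-27 parental array was the lowest of its line. The differences, transfected minus parental, were 0.01 ± 0.09 in AGS (limma adjusted p = 0.94) and 0.24 ± 0.09 in HGC-27 (limma adjusted p = 0.079), and neither passed.

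NQO1, the quinone reductase often read as a gauge of NRF2 activity, did not pass in either line on any of its 3 probe sets. The brightest, 210519_s_at, read 4559 and 4630 on the MIST1 and GFP control arrays of AGS, against 4890 on the parental array. The HGC-27 values were 3633 and 4003, against 4019. Its differences, transfected minus parental, were -0.09 ± 0.07 in AGS (95% interval -0.25 to 0.07) and -0.08 ± 0.07 in HGC-27 (95% interval -0.24 to 0.09). The other probe sets, 201467_s_at and 201468_s_at, differed by 0.08 and -0.05 in AGS and by 0.14 and 0.13 in HGC-27. The highest value of any NQO1 probe set was at most 1.15 times its lowest within a line. Probe sets named _s_at can read more than 1 transcript, which applies to NQO1, to ME1 204059_s_at and to GCLC 202923_s_at.

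GCLC and GCLM encode the catalytic and the modifier subunit of glutamate-cysteine ligase, the rate-limiting enzyme of glutathione synthesis. GCLC 202923_s_at read 961 and 971 on the MIST1 and GFP control arrays of AGS, against 1113 on the parental array. The HGC-27 values were 967 and 959, against 958, so the highest of the 3 values was 1.01 times the lowest. The AGS difference, -0.20 ± 0.07, did not pass (limma adjusted p = 0.086). GCLC 202922_at differed by -0.15 ± 0.10 in AGS and 0.17 ± 0.10 in HGC-27 (limma adjusted p = 0.29 and 0.24).

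GCLM 203925_at read 2803 on the array labelled MIST1, 2793 on the GFP control array and 2026 on the parental array of AGS. On the same arrays of HGC-27 it read 1212, 1219 and 1234. It rose 1.38-fold in AGS (log2 difference 0.47 ± 0.06, limma adjusted p = 0.0070), and in HGC-27 it differed by -0.02 ± 0.06 (limma adjusted p = 0.82, 95% interval -0.17 to 0.13). The difference between the responses, HGC-27 minus AGS, was -0.49 ± 0.09 (limma adjusted p = 0.030). The dimmer probe sets 234986_at and 236140_at did not pass, with differences of 0.20 ± 0.11 and 0.02 ± 0.17 in AGS and of -0.03 ± 0.11 and -0.20 ± 0.17 in HGC-27. The call of GCLM therefore rests on 1 of 3 probe sets. With the mean of the 3 the AGS difference was 0.23 (limma adjusted p = 0.14) and the difference between the responses -0.31 (limma adjusted p = 0.18), and neither passed.

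TXNRD1, thioredoxin reductase 1, read 2605 and 2539 on the MIST1 and GFP control arrays of AGS, against 2729 on the parental array. The HGC-27 values were 2330 and 2410, against 2797. The parental array was the highest in each line, and the difference passed in HGC-27, where it fell by 0.24 on the log2 scale (SE 0.06, limma adjusted p = 0.027). In AGS it was -0.09 ± 0.06 (limma adjusted p = 0.31). The test of the difference between the lines did not pass (-0.15 ± 0.08, HGC-27 minus AGS, limma adjusted p = 0.25). SRXN1, sulfiredoxin, which repairs overoxidized peroxiredoxins, read 1583 and 1566 on the transfected arrays of AGS, against 1423, and 1039 and 1139 on those of HGC-27, against 1030. Its differences were 0.15 ± 0.08 in AGS and 0.08 ± 0.08 in HGC-27 (limma adjusted p = 0.23 and 0.50).

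ME1, the cytosolic malic enzyme that supplies NADPH, was near or below the floor of 17.6 in AGS. Its probe set 204059_s_at read 1490 and 1522 on the MIST1 and GFP control arrays of HGC-27, against 2114 on the parental array, and 204058_at read 589 and 623, against 896. Both fell in HGC-27, by 0.49 ± 0.12 (limma adjusted p = 0.028) and by 0.56 ± 0.13 (limma adjusted p = 0.024) on the log2 scale. In AGS 204059_s_at read 25.01 and 22.87 on the MIST1 and GFP control arrays, against 12.09 on the parental array, which lies below the floor, and 204058_at lay below the floor on all 3 arrays. The AGS difference of 204059_s_at, 0.44 ± 0.12 (limma adjusted p = 0.041), is measured at the floor, and it was 0 with the floor at the median. The difference between the lines for this probe set, -0.93 ± 0.17 (HGC-27 minus AGS, limma adjusted p = 0.031), has the same limit, ranged between -0.49 and -1.47 and passed in 5 of 12 alternatives.

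The 4 probe sets that did not pass the filter were dim on all arrays. NFE2L2 1567015_at read between 35.8 and 56.4, GCLC 1555330_at between 7.68 and 42.7, TXNRD1 1561080_at between 14.0 and 31.7, and ME1 211204_at between 22.9 and 45.5. They were not tested.

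**Figure D3:**
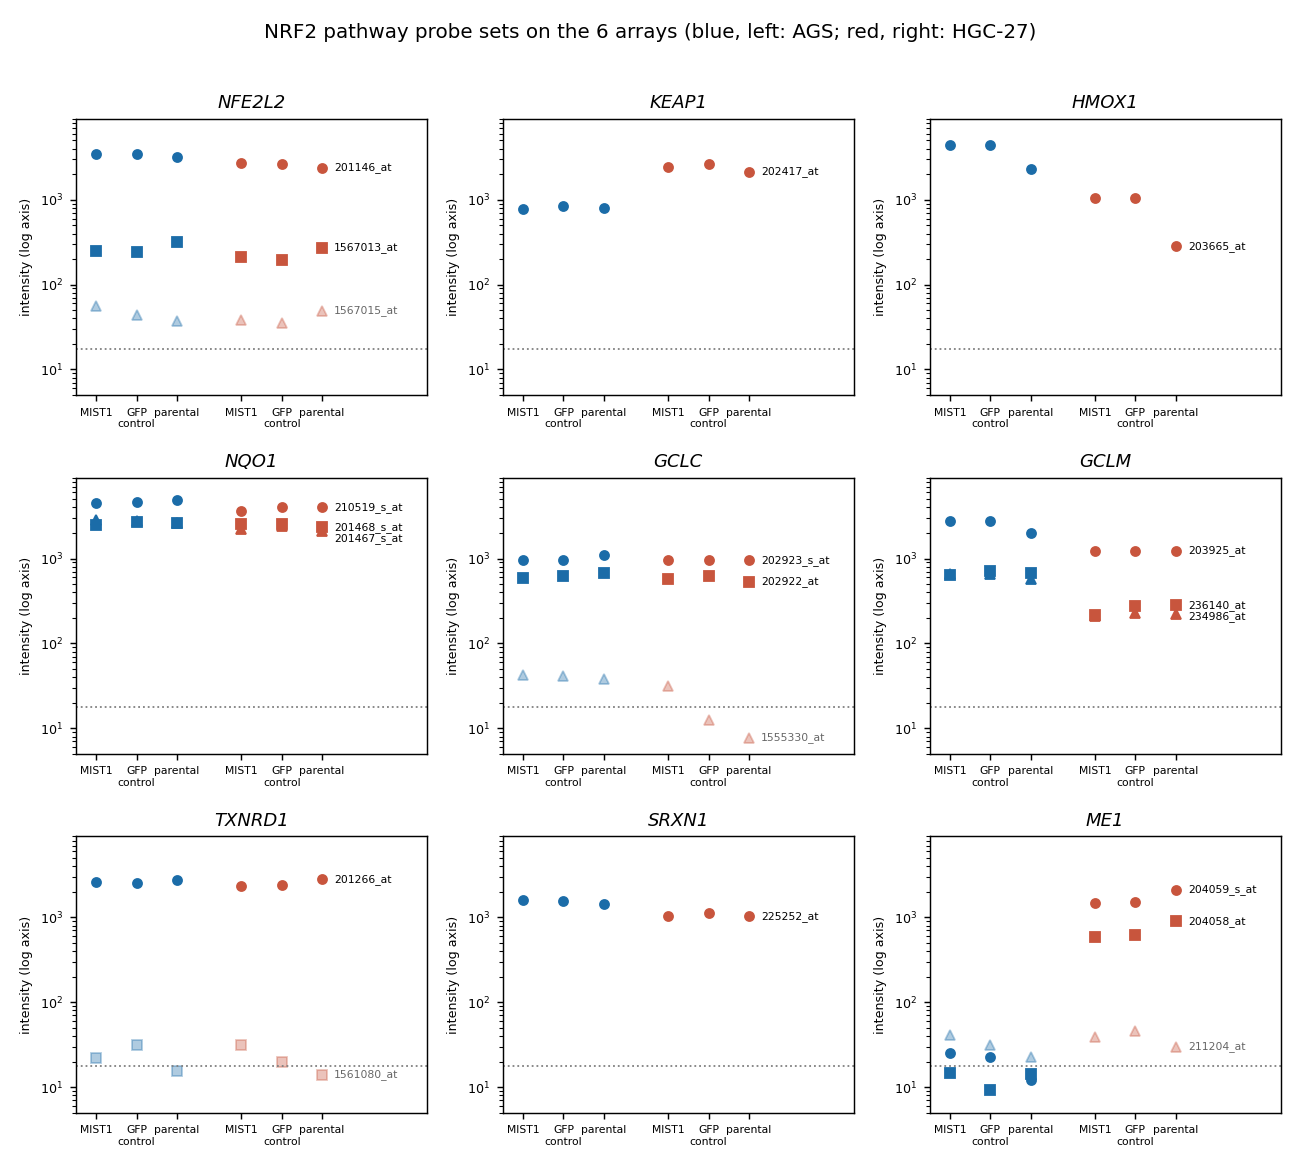
Deposited intensity (vertical axis, log scale) of all 20 probe sets of the 9 genes on the 6 arrays, with 1 panel per gene, AGS in blue on the left and HGC-27 in red on the right, and each point 1 array. Pale points mark the 4 probe sets that were not tested and the dotted line the floor of 17.6; HMOX1 drops on the parental array of each line, and ME1 204059_s_at lies between 12.09 and 25.01 in AGS and between 1490 and 2114 in HGC-27.

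The conditions were also compared with the lines as replicates. These comparisons share the GFP control or the parental arrays and are given side by side. HMOX1 differed by 1.42 ± 0.23 for the GFP control against parental (SE, n = 2 lines; limma adjusted p = 0.053) and by 1.41 ± 0.23 for MIST1 against parental (limma adjusted p = 0.040). The first did not pass, and by line it was 0.96 (AGS) and 1.88 (HGC-27). None of the 9 genes (0) passed for the GFP control against parental, where 0.415% of all genes passed as higher and 0.291% as lower. HMOX1 was the 1 gene that passed for MIST1 against parental, where 2.18% passed as higher and 1.22% as lower. Without the line as a block HMOX1 no longer passed (limma adjusted p = 1), nor did it pass without the filter (0.24), without the variance trend (0.095) or with the mean of probe sets per gene (0.057). Without the AGS parental array its difference was 1.88, and without the HGC-27 parental array 0.95.

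The lines themselves differed in most of the 9 genes. With the 3 conditions of a line standing in for replicates, 7 of 9 genes passed for AGS against HGC-27, 5 as higher and 2 (KEAP1 and ME1) as lower. Of these, ME1 passed the filter through HGC-27 alone. Of all genes, 33.2% passed as higher and 27.2% as lower. The 7 of 9 is to be read against these shares, since most genes of the arrays passed one way or the other. These p-values do not measure the spread between cultures of a line.

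HMOX1 averaged 3707 ± 1235 in AGS and 786 ± 437 in HGC-27 (SD over conditions, n = 3 each), and the log2 difference was 2.40 ± 0.19 (SE, limma adjusted p = 4.6e-05). The lowest AGS array, the parental one at 2282, lay above the highest HGC-27 array at 1040. Over the 4 transfected arrays alone the difference was 2.09. GCLM was higher in AGS on each of its probe sets, by 1.04, 1.51 and 1.40 on the log2 scale. Its brightest probe set averaged 2541 ± 446 in AGS and 1222 ± 11.05 in HGC-27 (SD, n = 3 each; limma adjusted p = 0.00025). SRXN1 averaged 1524 ± 87.6 in AGS and 1069 ± 60.6 in HGC-27, a log2 difference of 0.51 ± 0.08 (limma adjusted p = 0.0018).

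KEAP1 and ME1 were lower in AGS. KEAP1 averaged 808 ± 30.1 in AGS and 2409 ± 252 in HGC-27, so the HGC-27 level was 2.97 times that of AGS (log2 difference -1.57 ± 0.09, AGS minus HGC-27, limma adjusted p = 1.0e-05). ME1 204059_s_at averaged 19.99 ± 6.92 in AGS and 1709 ± 351 in HGC-27. ME1 passed the filter through its HGC-27 arrays alone, so its call follows from the filter, and the size depends on the floor. The log2 difference, AGS minus HGC-27, was -6.29 with the floor at 17.6 and -5.06 with the floor at the median, and on 204058_at -5.29 and -3.77. The AGS and HGC-27 arrays of KEAP1 did not overlap.

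NFE2L2 and NQO1 differed less. NFE2L2 201146_at averaged 3387 ± 150 in AGS and 2571 ± 169 in HGC-27 (log2 difference 0.40 ± 0.06, limma adjusted p = 0.0011). NQO1 210519_s_at averaged 4693 ± 174 in AGS and 3885 ± 218 in HGC-27 (0.27 ± 0.05, limma adjusted p = 0.0042), 201467_s_at differed by 0.30 ± 0.07 (limma adjusted p = 0.0077), and 201468_s_at, at 0.06 ± 0.07, did not pass (limma adjusted p = 0.52). GCLC, at 0.08 ± 0.09 and 0.15 ± 0.11, and TXNRD1, at 0.07 ± 0.07, did not pass either, with a 95% interval for TXNRD1 of -0.10 to 0.23. In bulk RNA of a line, fewer cells with a transcript and less RNA per cell cannot be told apart.

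The wider pathway was read from 7 lists of 103 other genes (NRF2 control, glutathione enzymes and cystine transport, thioredoxin and peroxiredoxin, superoxide and peroxide removal, NADPH supply, aldo-keto reductases and detoxification, heme and iron), of which 91 were measured. With transfected set against parental cells, 11 rose (12.1%) and 17 fell (18.7%) in AGS, where 13.1% of all genes rose and 13.9% fell. In HGC-27 17 rose (18.7%) and 17 fell (18.7%), where 22% of all genes rose and 8.33% fell. The median log2 difference of the 91 was -0.03 for AGS, where it was 0.00 for all genes, and 0.00 for HGC-27, where it was 0.11 for all genes. By gene, 4 (4.40%) passed as higher in both lines, against 6.6% of all genes, and 8 (8.79%) as lower in both, against 3.55%. These are counts, and no test of the list stands behind them.

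The 4 that rose in both lines were ABCC3, SLC48A1, MGST3 and FTL. ABCC3, an export pump for glutathione and glucuronide conjugates, read 316 and 294 on the MIST1 and GFP control arrays of AGS, against 131 on the parental array, and 103 and 109 on those of HGC-27, against 52.1. It rose by 1.22 ± 0.13 in AGS (limma adjusted p = 0.0048) and 1.02 ± 0.13 in HGC-27 (limma adjusted p = 0.0050). SLC48A1, a heme transporter, rose by 0.51 in AGS and 0.43 in HGC-27, and FTL, the ferritin light chain that stores iron, by 0.18 and 0.19. FTL passed in 6 of 13 alternatives in each line, and its HGC-27 difference was as low as 0.079. It was read on an _x_at probe set, which can cross-hybridize. MGST3, a microsomal glutathione transferase, rose by 0.38 and 0.60, but with the mean of its probe sets the HGC-27 difference was -0.16. Of the 10 measured heme and iron genes, 2 rose in AGS and 3 in HGC-27, which is near the shares of all genes that rose (13.1% and 22%), and 0 fell in either. The third in HGC-27 was the iron exporter SLC40A1, which read 528 and 313 on the MIST1 and GFP control arrays, against 152 on the parental array. In AGS it did not rise, with 730 and 573 against 780.

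The 8 that fell in both lines were PIR, UGDH, ABCC4, SLC7A11, MGST1, CHAC1, GPX2 and TKT. SLC7A11, the cystine importer that feeds glutathione synthesis, read 567 and 552 on the MIST1 and GFP control arrays of HGC-27, against 1749 on the parental array, and 171 and 189 on those of AGS, against 285. PIR, the iron-binding protein pirin, fell by 1.20 in AGS and 1.08 in HGC-27. CHAC1, which degrades glutathione, fell by 0.46 in AGS and fell by 1.84 in HGC-27, and GPX2, a glutathione peroxidase, fell by 0.36 in AGS and fell by 1.68 in HGC-27. MGST1, another microsomal glutathione transferase, fell by 0.49 in AGS and fell by 1.69 in HGC-27, and SLC7A11 fell by 0.67 in AGS and fell by 1.65 in HGC-27. For these 4 the difference between the lines, HGC-27 minus AGS, passed as well, at -1.37 ± 0.13 for CHAC1, -1.32 ± 0.11 for GPX2, -1.20 ± 0.10 for MGST1 and -0.98 ± 0.15 for SLC7A11 (limma adjusted p between 0.0085 and 0.023). This difference passed in 8 of 12 alternatives for each of CHAC1, GPX2 and MGST1, but in 5 of 12 for SLC7A11. UGDH, which makes the glucuronidation substrate, fell by 0.62 and 0.48, TKT, a pentose phosphate enzyme, by 0.33 and 0.24, and ABCC4, another export pump, by 0.61 and 0.34. ABCC4 in HGC-27 passed in 3 of 13 alternatives and was 0.10 with the mean of its probe sets. UGDH in HGC-27 passed in 6 of 13. TKT in HGC-27 ranged between -0.30 and -0.0094 over the alternatives and passed in 7 of 13. As with the 9 genes, 0 of these passed without any one of the 4 transfected arrays.

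**Figure D4:**
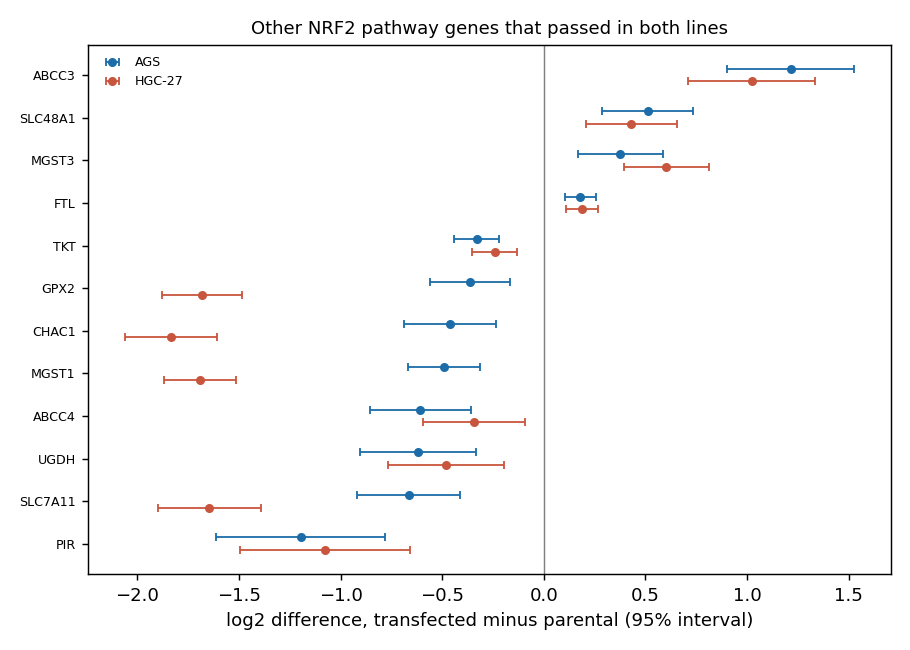
Log2 difference of intensity, transfected minus parental (horizontal axis), for the 12 other pathway genes that passed in the same direction in both lines (rows, brightest probe set), with AGS in blue above HGC-27 in red and bars for the 95% interval of the limma fit. ABCC3 lies farthest right, at 1.22 in AGS and 1.02 in HGC-27, and CHAC1, MGST1, GPX2 and SLC7A11 lie farther left in HGC-27 than in AGS.

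With the lines as replicates, ABCC3 was the 1 pathway gene of 91 that passed for the GFP control against parental (1.12 ± 0.16, limma adjusted p = 0.049), on a probe set of the _x_at kind, which can cross-hybridize. It passed in 7 of 16 alternatives, and without the GFP control array of AGS or of HGC-27 its adjusted p was 0.0505 and 0.084. With the mean of its probe sets the difference was 0.67. Of the 91 genes, 1.10% passed as higher here and 0% as lower, where 0.415% of all genes passed as higher and 0.291% as lower. For MIST1 against parental ABCC3 (1.12) and MGST3 (0.56) rose, PIR fell by 1.26 and UGDH fell by 0.64. That is 2.20% of the 91 each way, where 2.18% of all genes passed as higher and 1.22% as lower. Of 16 alternatives PIR passed in 13, ABCC3 and MGST3 in 11 and UGDH in 9, and none of the 4 passed without the block, the filter or the variance trend. Among single arrays, the call was lost without the AGS array labelled MIST1 for ABCC3 (limma adjusted p = 0.109) and UGDH (0.23), and without the HGC-27 one for UGDH (0.13) and MGST3 (0.059). With the mean of probe sets MGST3 was 0.075 and ABCC3 0.69. For MIST1 against the GFP control 0 of the 91 passed, where 0% of all genes did so. Among the genes with the same sign in both lines, the 4 with the largest differences were SLC40A1 (0.55 ± 0.41), TXNIP, which binds thioredoxin (0.50 ± 0.34), CBR3, a carbonyl reductase (-0.40 ± 0.22), and OSGIN1 (0.37 ± 0.21), each with a limma adjusted p of 1. Leaving out 1 array gave -0.022 (without the HGC-27 array labelled MIST1) to 1.13 for SLC40A1, 0.017 to 0.98 for TXNIP, -0.65 to -0.15 for CBR3 and 0.24 to 0.50 for OSGIN1.

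Between the lines, 39 of the 91 were higher in AGS (42.9%) and 20 lower (22.0%), where 33.2% of all genes were higher and 27.2% lower. Of these, 5 of the 39 lay below the median on all HGC-27 arrays and 1 of the 20 on all AGS arrays, so that they passed the filter through the other line alone. SQSTM1, whose protein binds KEAP1, read between 4712 and 5181 in AGS and between 1540 and 2390 in HGC-27, a log2 difference of 1.43 ± 0.14 (limma adjusted p = 0.00014). MAFF, a small MAF partner of NRF2, read between 524 and 653 in AGS and between 15.3 and 46.9 in HGC-27, where it lay below the median on all 3 arrays, so its size of difference was not measured. Of the 20 glutathione genes measured, 13 were higher in AGS and 4 lower, and 2 of the 13 passed the filter through AGS alone. One of these was GPX3, a secreted glutathione peroxidase, between 1287 and 2851 in AGS and between 26.6 and 30.3 in HGC-27. Of the 11 NADPH genes measured, 3 were higher and 5 lower, among them ME2, the mitochondrial malic enzyme, at -0.88 ± 0.11. Of the 10 heme and iron genes, 6 were higher and 3 lower, with the biliverdin reductase BLVRB at 1.51 ± 0.09 and the constitutive heme oxygenase HMOX2 at 1.47 ± 0.10.

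Over the 6 arrays and 13738 genes, each centred on its own mean, the genes whose pattern was most like that of HMOX1 were CDH1, L1CAM and ALPP, with root mean square differences of 0.21, 0.21 and 0.23 on the log2 scale. The HMOX1 values spanned 3.98 on that scale, and 0 genes lay within 0.1 of it. L1CAM read 1862 and 1845 on the MIST1 and GFP control arrays of AGS, against 1291 on the parental array, and 371 and 422 on those of HGC-27, against 134. ALPP read 91.66 and 70.72 on the MIST1 and GFP control arrays of HGC-27, against 2.27 on the parental array. That parental value was raised to the floor of 17.6, so the likeness of ALPP to HMOX1 depends on the floor. CDH1 read 22.08 on the HGC-27 parental array, just above the floor. For NQO1, whose brightest probe set spanned 0.43, TPI1, CLDND1 and CAPN7 were nearest, and 366 genes lay within 0.1. For NFE2L2, which spanned 0.55, CSNK1A1, PELI3 and ATG7 were nearest, and 364 genes lay within 0.1, so nearness to these flat patterns singles out no gene.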

How the data were processed

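Total RNA of 6 samples was measured on 1-colour Affymetrix arrays. The authors deposited 1 linear intensity value per probe set and array. The series design text names dChip; background correction and scaling are not given in the sources used here. Gene names came from the platform annotation, updated by gene ID.

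Intensity values below 17.6, their 25th percentile, were set to it and taken to log2. limma 3.58.1 in R 4.3.3 (lmFit, eBayes with trend) was fitted to 25954 single-gene probe sets, with two-sided tests, Benjamini-Hochberg adjustment over all of them and a threshold of 0.05. Conditions were compared with cell line as a block, since the study sets each line against its own controls (2 residual degrees of freedom, 4.66 prior). A fit with 4 means, line by transfected or parental, gave the response of each line (4.17 prior). P-values of the first fit mix technical spread with differences between lines. Those of the fit with 4 means take their spread from the gap between the MIST1 and GFP control arrays of a line. No separate cultures are named. Genes were counted by their brightest probe set. Of the pathway genes named, ABCC3, FTL, MGST1 and SOD3 were read on _x_at probe sets, which can cross-hybridize. PIR, TKT, MGST3, TXNIP, SQSTM1 and HMOX2 were read on _s_at probe sets. The fit was tested on simulated data.

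The members and lists were chosen with earlier results of these data known. The rule for names was every probe set of the 9 genes and, of the other lists, every called gene and up to 3 with the largest difference of the same sign in both lines; where many were called, counts and some of them are named. For likeness, the 3 nearest genes are named. Alternatives changed the floor, filter, variance trend, scaling, probe set summary, block and arrays used.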

Additional observations from a re-analysis of the deposited data

Results flagged for a closer look

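For 3 probe sets the response to transfection differed between the lines by the interaction test, HGC-27 minus AGS. HMOX1 203665_at differed by 0.93 on the log2 scale (limma adjusted p = 0.011), with a response of 1.88 in HGC-27 and 0.95 in AGS. GCLM 203925_at differed by -0.49 (limma adjusted p = 0.030), with -0.02 in HGC-27 and 0.47 in AGS, and its other probe sets did not pass. It passed in 5 of 12 alternatives, and beyond those without a transfected array it was lost with the floor at the median (limma adjusted p = 0.053), with no variance trend (0.090) and with the mean of probe sets (-0.31, limma adjusted p = 0.18). ME1 204059_s_at differed by -0.93 (limma adjusted p = 0.031), with -0.49 in HGC-27 and 0.44 in AGS, where the parental value lay below the floor. ME1 passed the filter through HGC-27 alone, its AGS response ranged between 0 and 0.98 over the alternatives with 4 of 13 past the threshold, and the difference ranged between -0.49 and -1.47 with 5 of 12, so no difference in response is read from it. None of the 3 passed without any one of the transfected arrays. No group held enough arrays for a search for outlying samples.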

How the results depend on the processing

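The number of arrays limits every count of called probe sets. The arrays of a line are tied by the labels, and without the replicate block 0 probe sets passed for the GFP control against parental and 0 for MIST1 against parental, where 171 and 806 passed with it. Those counts were 52 and 416 with no floor, 0 and 441 when the median was the floor, 0 and 0 with no filter, 0 and 0 with no variance trend, 503 and 1502 after quantile normalization, 37 and 467 with the brightest probe set per gene, 1 and 75 with the mean of probe sets, and 1598 and 1954 in a fit of the 4 arrays compared. Leaving out 1 array gave 346 to 9952 and 741 to 9947. MIST1 against the GFP control gave 0 with and without the block, 61 in the fit of 4 arrays and 5 to 57 without 1 array. AGS against HGC-27 gave 15525, 8263 with the brightest probe set and 8335 with the mean, on fewer rows tested. Transfected against parental gave 6799 in AGS and 7721 in HGC-27, 1815 and 2707 with no filter, 3624 and 4063 with the brightest, 3253 and 3689 with the mean, and 0 to 6805 and 0 to 7747 without 1 array. The difference between the lines gave 2753, 151 when the median was the floor, 619 with no trend, 1596 after quantile normalization, 1401 with the brightest, 1345 with the mean and 0 without any one transfected array. The causes were not tested.

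Over 118 results for single probe sets and 1653 alternatives, 1270 kept direction and side of the threshold, 346 lost the call, 30 gained it and 7 changed sign. The sign changed without 1 array for GCLM 203925_at against parental (-0.021 to 0.47 for the GFP control, -0.022 to 0.47 for MIST1), ME1 204058_at for the GFP control against parental (-0.54 to 0.021), and SLC40A1 (-0.022 to 1.13) and SOD3 (-0.040 to 0.65) for MIST1 against the GFP control. With the mean of probe sets it changed for ABCC4 (0.10) and MGST3 (-0.16) in HGC-27. HMOX1 kept its sign in every alternative and passed in 16 of 16 for AGS against HGC-27 (2.09 to 2.56), 9 of 13 in each line's response (0.92 to 0.98 in AGS, 1.78 to 1.88 in HGC-27), 8 of 12 for the difference of responses (0.80 to 0.93), 12 of 16 for MIST1 against parental and 8 of 16 for the GFP control against parental (0.96 to 1.89). AGS against HGC-27 without both parental arrays was added after seeing the data and gave 18869 probe sets.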
